A study of Mus musculus with 12 samples.

Results

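Interleukin-6 family signaling was described in intracranial melanoma through 10 genes: the ligands Il6, Lif, Osm and Clcf1, the receptor subunits Osmr, Lifr, Il6st, Il6ra and Cntfr, and the feedback inhibitor Socs3. They were taken by gene symbol from the 47069 genes of the count and FPKM tables, and all 10 were found. The family was chosen by its read counts and FPKM levels over the 4 groups, with results from these libraries already known, so the levels and p-values given here describe them and are not independent evidence about the family. Of the 10 genes, 9 passed the filter on low counts (10 reads at the median library size in at least 3 libraries) and entered the fit. Each of the 9 was at that filter's level in at least 4 libraries outside the therapy group of mice with both tumors. Il6 did not pass it.

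The samples were B16 F1 tumors, grown from a pigmented mouse melanoma line implanted in the brain of C57BL/6 mice (100000 cells) and taken at day 9. All mice carried the intracranial tumor, and the tissue is tumor with whatever brain and host cells came with it. The 4 groups of 3 libraries were mice with intracranial and extracranial tumors given anti-PD-1 plus anti-CTLA-4, mice with both tumors given IgG, mice with the intracranial tumor only given anti-PD-1 plus anti-CTLA-4, and mice with the intracranial tumor only given IgG. The antibody pair is called therapy below, and the groups are called both-tumor and intracranial-only. The series asks whether an extracranial tumor changes how intracranial melanoma responds to the antibody pair. The series text calls the 3 libraries of a group biological triplicates. In the main fit the p-values set group differences against the spread between libraries within groups, estimated over all 12 libraries.

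The ligands among these genes signal through complexes that all contain gp130, the protein of Il6st. IL-6 first binds its own receptor subunit Il6ra, LIF pairs gp130 with Lifr, mouse oncostatin M pairs it mainly with Osmr, and the cardiotrophin-like cytokine Clcf1 uses Cntfr together with Lifr. The complexes activate JAK kinases and STAT3, and STAT3 switches on Socs3, whose protein binds gp130 and the JAKs and ends the signal. In the brain the family is known for driving astrocytes and microglia into reactive states.

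Library totals ran from 18427495 to 22294182 reads. Summed melanocyte markers (9 genes, all detected in every group) ran from 22700 to 30300 CPM (read counts scaled to library size) over the 12 libraries, in keeping with the tumor label. Brain tissue was uneven. The summed neuron markers (10 genes, none at 0 in any group) ran from 337 to 1440 CPM in both-tumor therapy libraries, 7.23 to 628 in both-tumor IgG libraries, 3.13 to 15.3 in intracranial-only therapy libraries and 153 to 559 in intracranial-only IgG libraries. Replicate 2 of the both-tumor IgG group, whose sample name carries a different suffix, stood apart from its group with 7.23 CPM. Immune content also differed, with summed T cell markers at 58.5 to 121 CPM in both-tumor therapy libraries and at 1.29 to 28.0 CPM in the other 9.

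The 2 transcripts with the highest levels, both of receptor subunits, had like means in all 4 groups. Per length, Cntfr had the highest level among the members, with a median of 120.8 FPKM (read counts scaled to gene length and library size) over the 12 libraries, followed by Il6st with 53.2 FPKM. Socs3 had a median of 27.2 FPKM, Lifr 3.53 FPKM and Osmr 2.99 FPKM. Il6ra, at 0.794 FPKM, and the ligands, at 0.0593 to 0.538 FPKM, were the lowest. The highest library exceeded the lowest 1.42 times for Il6st, 1.82 times for Lifr and 2.06 times for Cntfr, counting in CPM. The same ratio was 3.19 for Osmr, 5.56 for Il6ra, 7.64 for Socs3, 8.92 for Lif, 13.8 for Osm and 19.1 for Clcf1.

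**Figure D1:**
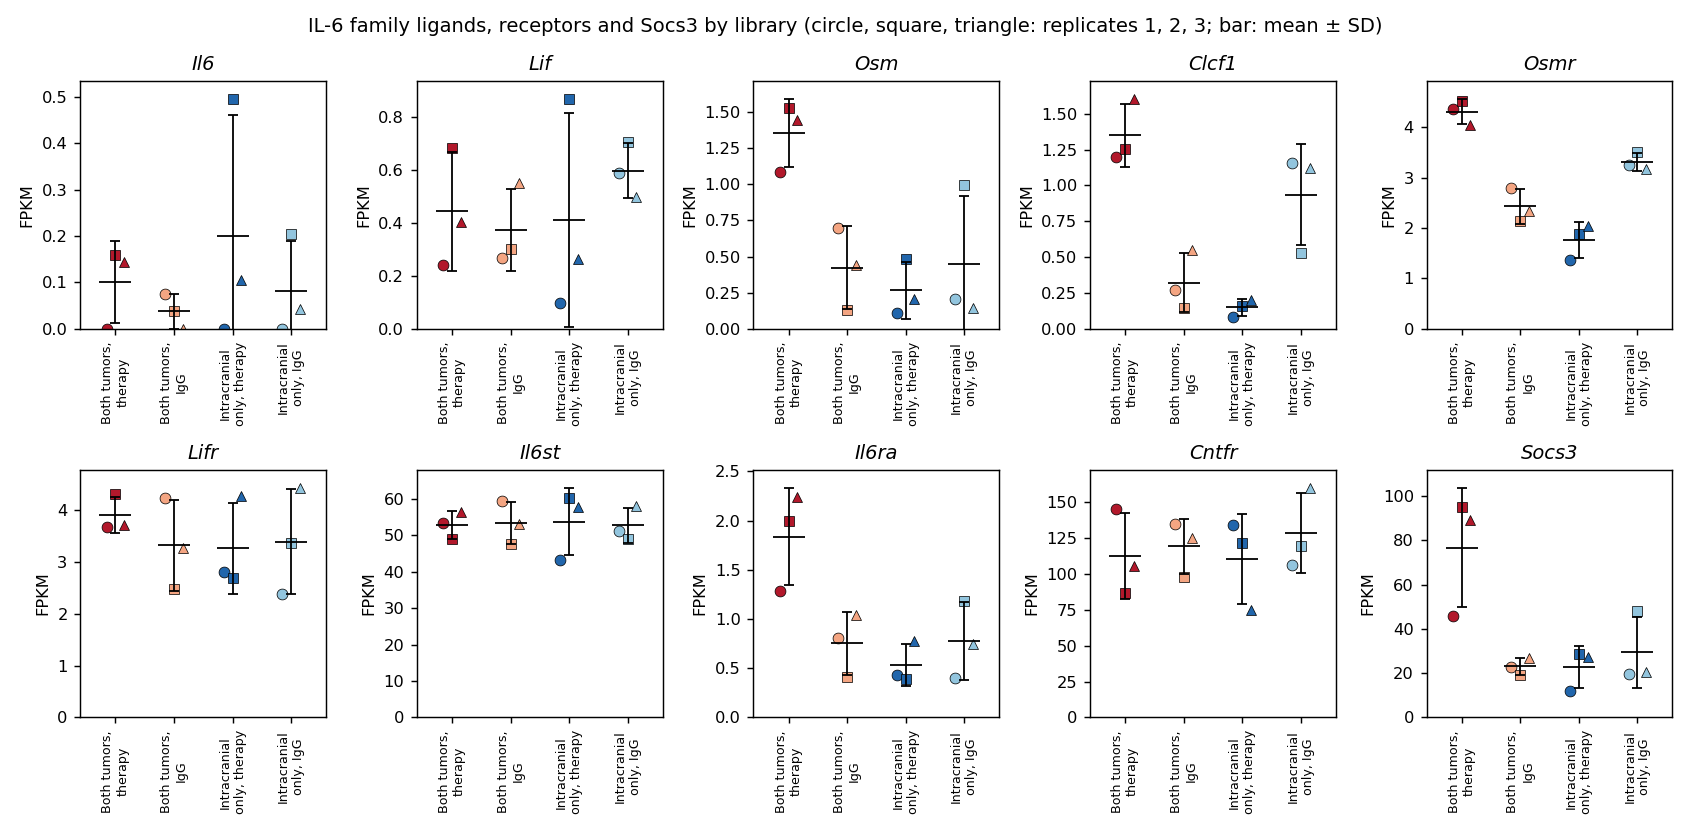
FPKM of each of the 10 genes in every library, by group, with replicates 1, 2 and 3 as circle, square and triangle and the group mean ± SD as a bar and whiskers (n = 3, whiskers cut at 0). Osm, Clcf1, Osmr and Il6ra are higher in the 3 both-tumor therapy libraries than in any other library, while Il6st stays between 43.1 and 60.2 FPKM throughout.

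Among the ligands, Osm and Clcf1 carried the differences between groups. Osm (ENSMUSG00000058755, GRCm38 chr11:4236420-4241026, plus strand) encodes oncostatin M, which myeloid cells and T cells secrete. It had 35, 46 and 48 reads (1.09, 1.53 and 1.45 FPKM) in both-tumor therapy libraries, against 22, 4 and 13 reads (0.701, 0.127 and 0.442 FPKM) in both-tumor IgG libraries. In mice with the intracranial tumor only it had 3, 14 and 7 reads in therapy libraries, against 6, 29 and 4 reads in IgG libraries. The 3 both-tumor therapy libraries were the highest of all 12, and the next was replicate 2 of the intracranial-only IgG group with 0.993 FPKM. The other 3 groups overlapped each other.

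Clcf1 (ENSMUSG00000040663, GRCm38 chr19:4214238-4223490, plus strand) had 50, 49 and 69 reads (1.20, 1.25 and 1.60 FPKM) in both-tumor therapy libraries, against 11, 6 and 21 reads (0.269, 0.147 and 0.549 FPKM) in both-tumor IgG libraries. In intracranial-only mice the order was the other way round, with 3, 6 and 9 reads (0.0820, 0.1595 and 0.204 FPKM) under therapy, against 44, 20 and 41 reads (1.16, 0.527 and 1.12 FPKM) under IgG. Its mean was 1.35 ± 0.219 FPKM in both-tumor therapy libraries and 0.936 ± 0.354 FPKM in intracranial-only IgG libraries (SD, n = 3 each), and these 2 groups overlapped in CPM but not in FPKM.

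Lif (ENSMUSG00000034394, GRCm38 chr11:4257557-4272514, plus strand) lies 16.5 kb from Osm on the same strand and did not share its pattern. Lif encodes leukemia inhibitory factor. It averaged 0.443 ± 0.223 FPKM in both-tumor therapy libraries, 0.371 ± 0.154 in both-tumor IgG libraries, 0.409 ± 0.404 in intracranial-only therapy libraries and 0.596 ± 0.105 in intracranial-only IgG libraries (SD, n = 3 each), and every neighboring pair in that order of means overlapped. Il6 (ENSMUSG00000025746, GRCm38 chr5:30013114-30019981, plus strand), the inflammatory cytokine that names the family, was close to undetected. It had 0, 4 and 4 reads in both-tumor therapy libraries, against 2, 1 and 0 reads in both-tumor IgG libraries, and 0, 12 and 3 reads in intracranial-only therapy libraries, against 0, 5 and 1 reads in intracranial-only IgG libraries. Pooled over a group this was 0.128 CPM (reads over library totals, 95% exact Poisson interval 0.0551 to 0.252, counting error only) in both-tumor therapy and 0.0495 (0.0102 to 0.145) in both-tumor IgG. It was 0.251 (0.140 to 0.414) in intracranial-only therapy and 0.106 (0.0388 to 0.230) in intracranial-only IgG. A count of 0 allows 3 reads, or 0.136 to 0.166 CPM in these libraries, and replicate 2 of intracranial-only therapy, with 12 reads, was the one library well above that. In a fit without the filter on low counts Il6 passed the threshold in none of the 5 comparisons (edgeR adjusted p = 0.58 to 1), with a log2 fold change of 1.24 ± 1.49 for therapy over IgG in both-tumor mice and of 1.32 ± 1.29 in intracranial-only mice.

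Summed over the 4 ligands, FPKM came to 2.53, 3.62 and 3.59 in both-tumor therapy libraries, against 1.31, 0.613 and 1.54 in both-tumor IgG libraries. The sum was 0.287, 2.0 and 0.778 in intracranial-only therapy libraries, against 1.95, 2.43 and 1.80 in intracranial-only IgG libraries. In the both-tumor therapy libraries Osm gave 40.3% to 43.1% of that sum and Clcf1 34.6% to 47.3%. IgG libraries reached such shares too. In the intracranial-only IgG group Osm gave 10.5%, 40.9% and 7.9%, and Clcf1 59.3%, 21.7% and 62.3%. In the both-tumor IgG group Osm gave 53.4%, 20.8% and 28.7%, and Clcf1 20.5%, 24% and 35.7%. In intracranial-only therapy libraries Lif gave 33.7% to 43.2%, and in both-tumor IgG libraries 20.3% to 49.1%. In replicate 1 of intracranial-only therapy Osm gave more than Lif (37.1% against 34.4%), on 3 and 5 reads.

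Among the receptors, only Osmr and Il6ra had all both-tumor therapy libraries above every other library. Osmr (ENSMUSG00000022146, GRCm38 chr15:6813577-6874969, minus strand) encodes the oncostatin M receptor subunit. It measured 4.36, 4.53 and 4.06 FPKM in both-tumor therapy libraries, against 2.80, 2.14 and 2.35 FPKM in both-tumor IgG libraries. Intracranial-only libraries had 1.37, 1.89 and 2.05 FPKM under therapy, against 3.25, 3.52 and 3.19 FPKM under IgG. No 2 of the 4 groups overlapped, which among the 9 tested members was the case for Osmr alone. How many of all tested genes had 4 separate groups was not counted, so the pattern is not shown to be particular to Osmr. The order was both-tumor therapy, intracranial-only IgG, both-tumor IgG and intracranial-only therapy.

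Il6ra (ENSMUSG00000027947, GRCm38 chr3:89864059-89913196, minus strand) encodes the IL-6 binding subunit, found on leukocytes and hepatocytes. It had 163, 236 and 292 reads (1.29, 1.99 and 2.24 FPKM) in both-tumor therapy libraries, against 100, 51 and 121 reads (0.810, 0.412 and 1.05 FPKM) in both-tumor IgG libraries. It had 48, 44 and 104 reads in intracranial-only therapy libraries, against 46, 136 and 82 reads in intracranial-only IgG libraries. As for Osm, the both-tumor therapy libraries were the 3 highest and the other groups overlapped. Osm, Osmr and Il6ra are 3 of 9 tested members with all both-tumor therapy libraries above the other 9 libraries in CPM, a pattern that 10.3% of all tested genes had.

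Il6st (ENSMUSG00000021756, GRCm38 chr13:112464070-112510086, plus strand), the shared signaling subunit, averaged 52.9 ± 3.81 FPKM in both-tumor therapy libraries, 53.4 ± 5.83 in both-tumor IgG, 53.7 ± 9.24 in intracranial-only therapy and 52.8 ± 4.77 in intracranial-only IgG (SD, n = 3 each). Lifr (ENSMUSG00000054263, GRCm38 chr15:7090614-7197489, plus strand), whose gene lies 215.6 kb from Osmr, averaged 3.91 ± 0.356, 3.33 ± 0.878, 3.27 ± 0.883 and 3.40 ± 1.02 FPKM in the same 4 groups. Cntfr (ENSMUSG00000028444, GRCm38 chr4:41657498-41697089, minus strand), the ciliary neurotrophic factor receptor subunit, averaged 112.7 ± 30.1, 119.3 ± 19.1, 110.3 ± 31.3 and 128.5 ± 28.0 FPKM there. For these 3 receptors every neighboring pair of groups overlapped. The ratio of Osmr to Lifr in FPKM was 1.18, 1.05 and 1.09 in both-tumor therapy libraries, against 0.662, 0.863 and 0.718 in both-tumor IgG libraries. It was 0.484, 0.700 and 0.479 in intracranial-only therapy libraries, against 1.36, 1.04 and 0.718 in intracranial-only IgG libraries. Osmr was above Lifr in all 3 both-tumor therapy libraries and below it in all 3 both-tumor IgG and all 3 intracranial-only therapy libraries.

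Socs3 (ENSMUSG00000053113, GRCm38 chr11:117966079-117970047, minus strand) is the feedback inhibitor that STAT3 induces. By its median FPKM over all libraries it was the highest of these genes after Cntfr and Il6st, an order that did not hold in every library. It measured 45.9, 95.2 and 89.0 FPKM in both-tumor therapy libraries, against 22.8, 19.4 and 27.0 FPKM in both-tumor IgG libraries. Intracranial-only libraries had 11.99, 28.9 and 27.3 FPKM under therapy, against 19.7, 47.9 and 20.6 FPKM under IgG. Both-tumor therapy libraries did not overlap those of the other both-tumor group, and replicate 2 of the intracranial-only IgG group lay within their range. That library was also the highest of its group for Osm and Il6ra.

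Promoter sequence was read for the members from RefSeq (GRCm38.p6), in the 250 bases before each annotated start. Windows were listed for 8 of the 10 members, without Osm and Clcf1. Cntfr and Lifr had further windows at other annotated starts, so a count of members is not comparable to a share of windows. The palindromic STAT motif TTCNNNGAA, which is its own reverse complement, occurred in 7.02% of all 32851 promoter windows of that length. Among the 8 members it occurred in Socs3 alone, as TTCTTAGAA at 154 to 146 bases before the start. That RefSeq start lies inside the longer span given for Socs3 above. The Socs3 stretch that holds it and lies outside annotated exons (chr11:117969452-117969616, minus strand) is shown with the match in capitals, beside the window of Il6st (chr13:112463820-112464069, plus strand), the member with the flattest levels, in which the letters were not found.
Socs3: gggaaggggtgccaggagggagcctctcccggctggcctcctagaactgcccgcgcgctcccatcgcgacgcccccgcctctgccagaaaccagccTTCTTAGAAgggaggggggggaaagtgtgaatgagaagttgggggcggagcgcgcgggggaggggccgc
Il6st: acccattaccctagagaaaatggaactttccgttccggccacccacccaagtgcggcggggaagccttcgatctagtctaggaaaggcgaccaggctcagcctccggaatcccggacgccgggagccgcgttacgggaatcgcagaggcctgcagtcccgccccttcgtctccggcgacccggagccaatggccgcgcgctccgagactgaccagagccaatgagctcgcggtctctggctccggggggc
A match is a description of these letters and says nothing of binding in these tumors.

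In mice with both tumors, therapy went with higher Clcf1, Socs3 and Osmr. Clcf1 was 4.18-fold higher (log2 fold change 2.06 ± 0.49 SE), Socs3 3.30-fold higher (1.72 ± 0.43) and Osmr 1.75-fold higher (0.81 ± 0.19), each with adjusted p = 0.0498. These are Benjamini-Hochberg values of edgeR's quasi-likelihood test over 15925 genes. So 3 of 9 tested members were called, all higher, in a comparison that called 5.39% of all genes, 1.24% as higher and 4.14% as lower. Il6ra had a log2 fold change of 1.28 ± 0.46 (adjusted p = 0.0895) and Osm 1.67 ± 0.76 (adjusted p = 0.154). Groups did not overlap for Osm, Clcf1, Osmr, Il6ra and Socs3, which is 5 of 9 members, against 17.9% of all tested genes in that direction. Lif (0.24 ± 0.66), Lifr (0.22 ± 0.26), Il6st (-0.03 ± 0.14) and Cntfr (-0.10 ± 0.24) did not pass the threshold. The median log2 fold change of the 9 members was 0.81, beside 0.02 over all tested genes.

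The 3 calls lay just under the threshold, at the smallest adjusted p of any gene in that comparison. None of them remained with RLE size factors, without the filter on low counts, in a fit of the 2 groups alone, or without any 1 of replicates 2 and 3 of both-tumor therapy, 1 and 2 of both-tumor IgG, 1, 2 and 3 of intracranial-only therapy, and 1 and 3 of intracranial-only IgG. Without replicate 3 of both-tumor IgG, Clcf1 and Socs3 were called and Osmr was not. In the 12 fits that left out 1 library, log2 fold changes lay within 1.74 to 2.64 for Clcf1, 1.54 to 1.99 for Socs3 and 0.75 to 0.91 for Osmr. Over those fits 0 to 2394 of all genes were called, beside 858 in the main fit. With RLE size factors, without the filter or with the 2 groups alone, 0 of all genes were called. DESeq2, limma's voom, log2(FPKM + 1) and log2(FPKM + 0.1) each called all 3 members.

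Other cells' markers moved with these genes. In mice with both tumors the summed monocyte and macrophage markers (10 genes, none at 0 in any group) were 629 to 905 CPM in therapy libraries, against 115 to 301 CPM in IgG libraries. Microglia markers (8 genes, none at 0) were 186 to 415 CPM in therapy libraries, against 42.8 to 170 CPM in IgG libraries, and astrocyte markers (9 genes, none at 0) were 1190 to 2120 CPM, against 296 to 982 CPM. Neutrophil markers (8 genes) were 15.2 to 19.3 CPM in therapy libraries, against 1.36 to 5.95 CPM in IgG libraries, with Ly6g, a defining marker, at 0 in both intracranial-only groups. Oligodendrocyte markers (8 genes) were 860 to 1730 CPM in therapy libraries, against 225 to 842 CPM in IgG libraries. Few single markers were called higher there, beside 1.24% of all genes. They were 1 of 10 monocyte and macrophage, 2 of 8 microglia, 2 of 8 oligodendrocyte and 1 of 9 endothelial markers. The count was 0 of 9 for astrocyte and 0 of 4 for tested neutrophil markers. The part of these cells in the differences of Osm, Clcf1, Osmr, Il6ra and Socs3 was not tested. In bulk tissue, fewer cells of a type and less RNA per cell cannot be told apart.

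**Figure D2:**
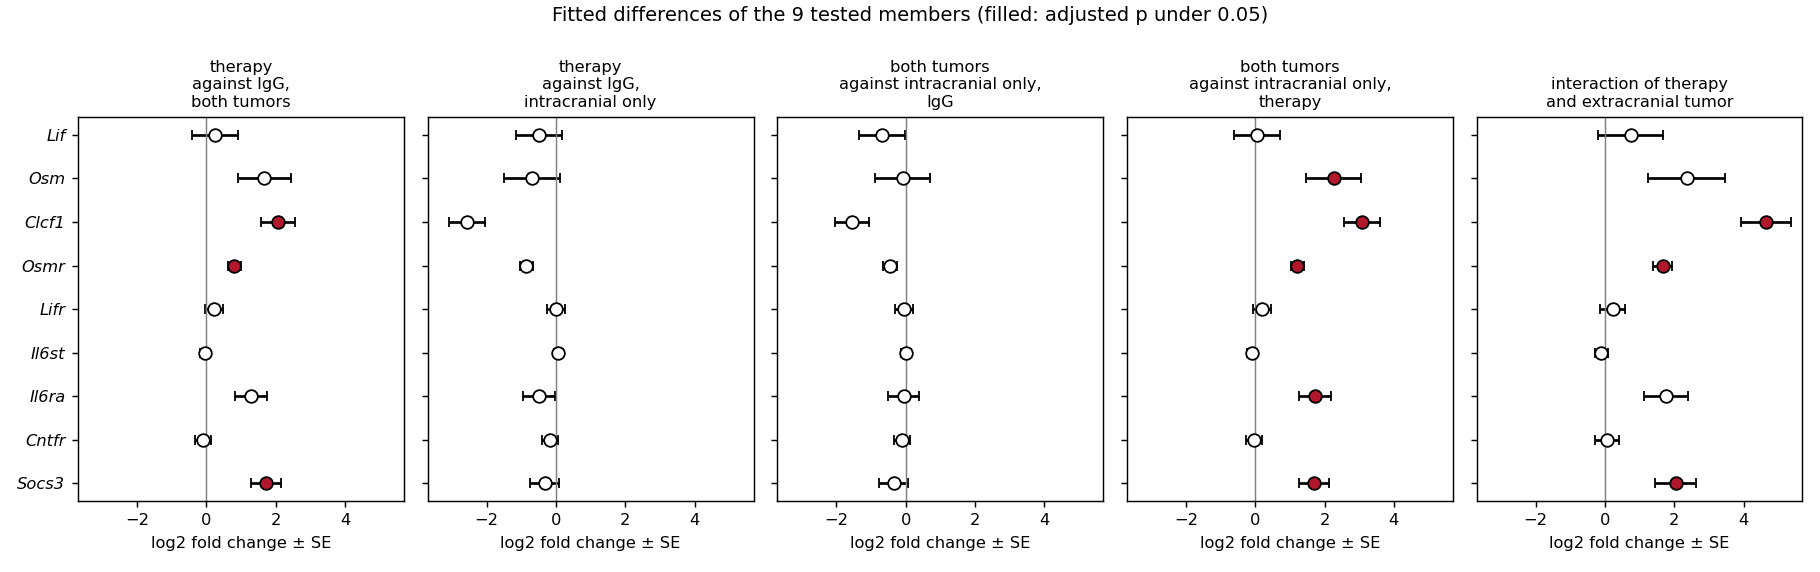
Log2 fold changes ± SE of the 9 tested genes in the 5 comparisons (x axis), filled where the adjusted p was under 0.05. Clcf1, Osmr and Socs3 are filled for therapy in both-tumor mice, for the extracranial tumor under therapy and for the interaction, Osm and Il6ra for the extracranial tumor under therapy alone, and Lif, Lifr, Il6st and Cntfr in none.

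In mice with the intracranial tumor only, no member passed the threshold between therapy and IgG, and neither did any other gene (0% of 15925 called, with 2151 genes and 2 members at an unadjusted p under 0.05 in edgeR). DESeq2 called 1035 genes there, with Clcf1 and Osmr among them. The 2 members were Clcf1, at -2.57 ± 0.53 on the log2 scale (adjusted p = 0.134), and Osmr, at -0.86 ± 0.19 (adjusted p = 0.134). For both, all 3 therapy libraries lay below all 3 IgG libraries, as did 14.4% of all tested genes. Osm (-0.69 ± 0.81), Il6ra (-0.49 ± 0.46), Lif (-0.49 ± 0.66) and Socs3 (-0.32 ± 0.42) overlapped between the groups. Both members were called without replicate 2 of the both-tumor IgG group. The lowest edgeR adjusted p over the left-out libraries was 0.00935 for Clcf1 and 0.0231 for Osmr. Clcf1 was also called in a fit of the 2 groups alone. Of all genes, 0 to 1002 were called when 1 library was left out, and 839 with the 2 groups alone. Astrocyte markers moved the same way, at 347 to 378 CPM in therapy libraries, against 697 to 1020 CPM in IgG libraries, as did the neuron markers given above. With the neuron markers as a covariate, Clcf1 stood at -1.38 and Osmr at -0.89, neither called (edgeR adjusted p = 0.859 each), and the part of astrocytes was not tested.

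Under IgG, both-tumor and intracranial-only mice did not differ in any gene past the threshold (0% called, with 188 genes and 2 members at an unadjusted p under 0.05 in edgeR, and 0 genes called by DESeq2). The 2 members were Clcf1 (-1.56 ± 0.49) and Osmr (-0.45 ± 0.19), both with an adjusted p of 1. Osmr libraries did not overlap, with 2.14 to 2.80 FPKM in both-tumor IgG and 3.19 to 3.52 FPKM in intracranial-only IgG, a pattern that 2.78% of all tested genes had in that direction.

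Under therapy, the extracranial tumor went with higher levels of 5 of the 9 tested members. Clcf1 was 8.44-fold higher (3.08 ± 0.53, adjusted p = 0.00455), Osm 4.81-fold (2.26 ± 0.79, adjusted p = 0.0388), Il6ra 3.29-fold (1.72 ± 0.46, adjusted p = 0.0132), Socs3 3.22-fold (1.69 ± 0.43, adjusted p = 0.0106) and Osmr 2.32-fold (1.21 ± 0.19, adjusted p = 0.00455). The comparison called 45.4% of all genes, 24.4% as higher and 21% as lower, so a call by itself sets a gene little apart here. All 5 had both-tumor libraries above all intracranial-only libraries, as did 31.4% of tested genes. Lif (0.04 ± 0.66), Lifr (0.19 ± 0.26), Il6st (-0.09 ± 0.14) and Cntfr (-0.04 ± 0.24) did not pass the threshold. The median over the 9 members was 1.21, beside 0.03 over all tested genes. Clcf1, Osmr and Socs3 were called in all 12 fits that left out 1 library. Those fits called 4710 to 8128 of all genes. Il6ra was called in 11, all but the one without replicate 2 of intracranial-only therapy (adjusted p = 0.0523). Osm was called in 6 and lost without replicates 1 and 3 of intracranial-only therapy, replicate 3 of both-tumor IgG, or replicate 1, 2 or 3 of both-tumor therapy.

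These 2 groups also lie at the ends of the range of brain tissue. All 10 neuron markers, all 8 microglia markers, 8 of 9 astrocyte markers, 9 of 10 T cell markers and 5 of 10 monocyte and macrophage markers were called higher in both-tumor therapy libraries than in intracranial-only therapy libraries. With the mean log2 level of the neuron markers as a covariate, no gene of the table was called in any comparison. The members' fitted differences in that model were 1.26 for Osmr and 1.80 for Socs3, while Clcf1 stood at 1.63, Osm at 1.46 and Il6ra at 0.90, all on the log2 scale.

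The effect of therapy differed between mice with and without the extracranial tumor for 3 members. The interaction, the therapy difference in both-tumor mice minus that in intracranial-only mice, was 4.64 ± 0.72 on the log2 scale for Clcf1 (adjusted p = 0.0321), 1.67 ± 0.27 for Osmr (adjusted p = 0.0321) and 2.04 ± 0.60 for Socs3 (adjusted p = 0.0391). It was 1.77 ± 0.64 for Il6ra (adjusted p = 0.0689) and 2.36 ± 1.11 for Osm (adjusted p = 0.141). The interaction called 22% of all genes, 12.1% as positive and 9.93% as negative. For Clcf1 and Osmr both therapy effects added to it with opposite signs, while Socs3 came mostly from the both-tumor mice, with 1.72 there and -0.32 in intracranial-only mice. No member was called without any 1 of replicates 2 and 3 of both-tumor therapy, 1 of both-tumor IgG, 1, 2 and 3 of intracranial-only therapy, and 2 and 3 of intracranial-only IgG. Without replicate 2 of both-tumor IgG, Clcf1 and Osmr were called and Socs3 was not. Il6ra was also called without replicate 1 of intracranial-only IgG (adjusted p = 0.0458). Over the fits that left out 1 library, 0 to 4367 of all genes were called, beside 3505 in the main fit. Socs3 was not called with limma's voom (1.94, adjusted p = 0.0584).

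Library by library, the members moved with markers of several cell types at once. The 4 libraries with the most Osm and the most Il6ra were the 3 both-tumor therapy libraries and replicate 2 of intracranial-only IgG. The same 4 held the highest monocyte and macrophage markers, with sums of 629, 851 and 905 CPM in both-tumor therapy libraries and 495 CPM in that IgG library, against at most 301 CPM elsewhere. They were also the 4 highest for T cell and dendritic cell markers. The 4 libraries with the least Clcf1 and the least Osmr were the 3 intracranial-only therapy libraries and replicate 2 of both-tumor IgG. These 4 had the least astrocyte marker RNA, with 347 to 378 CPM in intracranial-only therapy libraries and 296 CPM in that IgG library, against at least 697 CPM elsewhere. They were also the 4 lowest for neuron, oligodendrocyte, microglia and endothelial markers, so these libraries do not single out 1 cell type for any member. Whether any of these cells are the source of the transcripts was not tested.

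**Figure D3:**
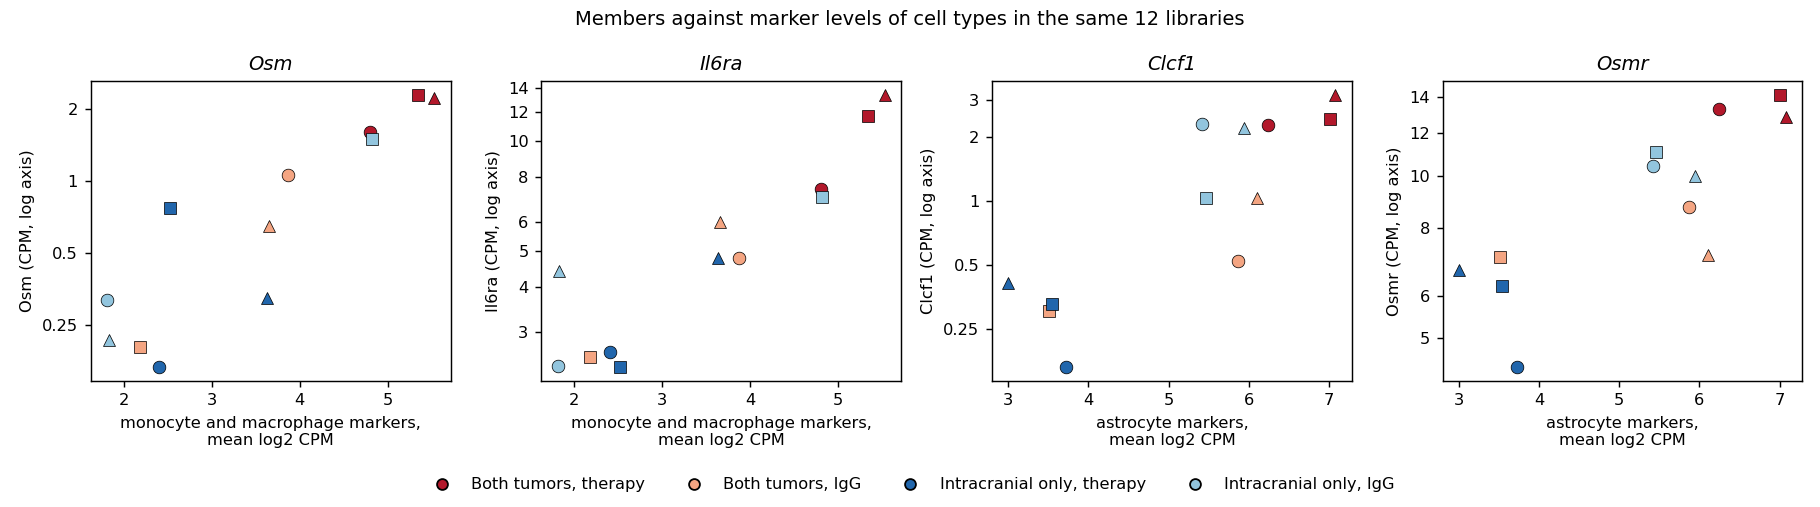
CPM of Osm and Il6ra (log axis) against the mean log2 CPM of monocyte and macrophage markers, and of Clcf1 and Osmr against that of astrocyte markers, for the 12 libraries colored by group, with replicates 1, 2 and 3 as circle, square and triangle. The 3 both-tumor therapy libraries lie at the upper right of each panel, and the 3 intracranial-only therapy libraries at the lower left for Clcf1 and Osmr, where markers of other cell types order the libraries alike.

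The members differed in the genes they resembled most over the 12 libraries, among 14152 named genes and by Pearson correlation of log2 CPM. Osm was closest to Card9 (r = 0.981), an adaptor of myeloid cells, Selp (0.968), the gene of P-selectin, and Serpinb6b (0.965). Il6ra was closest to H2-Q5 (0.985), a class I gene that can share reads with near-identical copies, Selplg (0.984), the P-selectin ligand of leukocytes, and Pik3ip1 (0.979). Socs3 was closest to Zfp36 (0.974), which encodes an mRNA-destabilizing protein, Srgn (0.973), a leukocyte proteoglycan gene, and Traf5 (0.970). Clcf1 was closest to Ptx3 (0.966), a secreted pentraxin, and then to Tunar and Trpm3 (0.942 each). Osmr was closest to Gadd45g (0.935), Adora2a (0.924), an adenosine receptor gene, and Fcgr2b (0.916), an inhibitory Fc receptor gene. Among the members called in no comparison, Il6st was closest to Kmt2e (0.943), Lifr to Krit1 (0.913), Cntfr to Vegfb (0.897) and Lif to Hdac9 (0.888). The libraries share their group, depth and tissue makeup, so these values only describe likeness.

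Of 54 other genes of the pathway, 49 were tested, and the 5 that were not are the ligands Cntf, Ctf2, Il27 and Il31 and the receptor Il31ra. In mice with both tumors, therapy went with 2 genes called higher and 1 called lower, all among the 22 listed STAT3 targets. These 3 of 49 genes are close to the 5.39% of all genes called there (1.24% higher and 4.14% lower). Junb, an AP-1 transcription factor, measured 38.6, 74.9 and 56.5 FPKM in therapy libraries, against 22.5, 25.3 and 26.7 FPKM in IgG libraries (1.17 ± 0.28 on the log2 scale, adjusted p = 0.0498). Saa3, an acute-phase protein, measured 8.03, 22.3 and 7.95 FPKM in therapy libraries, against 3.11, 4.10 and 2.14 FPKM in IgG libraries (1.99 ± 0.50, adjusted p = 0.0498). Myc, a growth-promoting transcription factor, fell to 26.4, 13.8 and 16.4 FPKM in therapy libraries, against 37.4, 60.2 and 38.2 FPKM in IgG libraries (-1.30 ± 0.28, adjusted p = 0.0498). The 2 groups did not overlap for any of the 3, as held for 17.9% of all genes in the higher direction and 20.1% in the lower. The median log2 fold change of the 22 STAT3 targets was 1.18, beside 0.02 over all genes. With RLE size factors, without the filter or with the 2 groups alone, none of the 49 genes was called, and DESeq2 called 18. Of all genes, each of the first 3 settings called 0 and DESeq2 called 3133.

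Under therapy, the extracranial tumor went with 17 of the 49 genes higher and 3 lower, in the comparison that called 45.4% of all genes. Among the STAT3 targets 11 of 22 were higher and 1 was lower. Gfap, the astrocyte filament gene and also one of the astrocyte markers, had 203.0, 281.0 and 388.4 FPKM in both-tumor libraries, against 8.40, 10.3 and 6.56 FPKM in intracranial-only libraries (5.05 ± 0.78, adjusted p = 0.00455). Serpina3n, a secreted protease inhibitor of reactive astrocytes, had 22.4, 21.3 and 31.2 FPKM, against 2.62, 6.86 and 3.22 FPKM (2.49 ± 0.54, adjusted p = 0.00559). Myc fell by 1.60 on the log2 scale (SE 0.28, adjusted p = 0.00455). The receptor gene Il27ra rose 8.35-fold, with 53, 61 and 62 reads in both-tumor libraries, against 5, 6 and 8 reads in intracranial-only libraries (3.06 ± 0.63, adjusted p = 0.00497). Il11ra1, the IL-11 receptor subunit, rose by 0.66 ± 0.23 (adjusted p = 0.0374), but the groups overlapped. It had 19.98, 20.02 and 14.51 FPKM in both-tumor libraries, against 15.37, 9.307 and 8.174 FPKM in intracranial-only libraries. Ebi3, a subunit of IL-27, had 20, 24 and 41 reads in both-tumor libraries, against 6, 1 and 1 reads in intracranial-only libraries (3.19 ± 1.07, adjusted p = 0.0324). Only 2 libraries outside both-tumor therapy reached the filter's level for Ebi3, so it entered the fit through the group in which it is high.

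**Figure D4:**
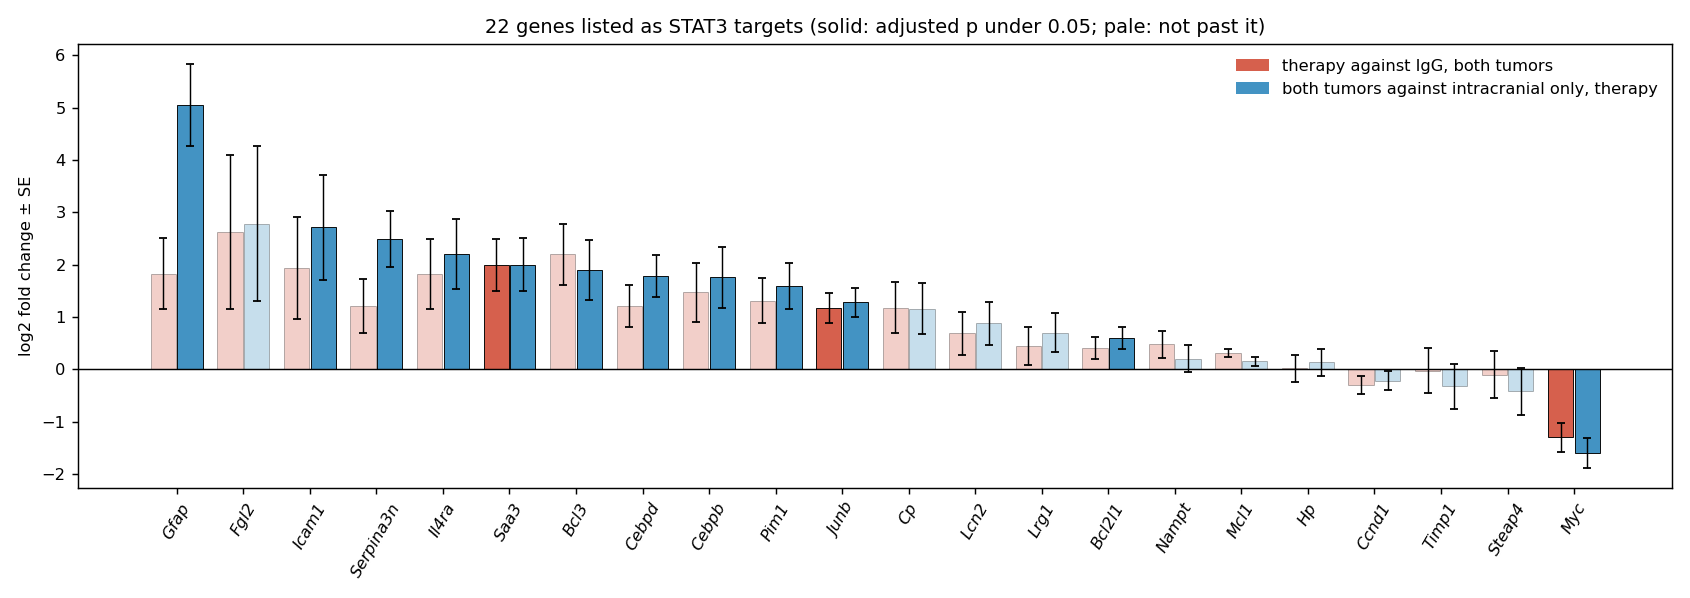
Log2 fold change ± SE of the 22 listed STAT3 targets of therapy over IgG in both-tumor mice (red) and of both tumors over intracranial only under therapy (blue), solid where the adjusted p was under 0.05. Gfap has the tallest bar, at 5.05, Myc is lowest in both comparisons, and 3 red and 12 blue bars are solid.

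Among signaling proteins 1 of 12 was higher and 1 lower under therapy with the extracranial tumor, and among 7 other feedback regulators 2 were higher and 1 lower, beside 45.4% of all genes called there. Grb2, an adaptor, stood at 0.39 ± 0.09 (adjusted p = 0.00784), and Shc1, another adaptor, at -0.56 ± 0.14 (adjusted p = 0.00983). Stat3, named after its values were seen, had 248.6, 322.9 and 323.3 FPKM in both-tumor therapy libraries, against 208.6, 129.1 and 174.0 FPKM in both-tumor IgG libraries and 102.5, 245.0 and 230.2 FPKM in intracranial-only therapy libraries. It was not called against either (0.79 ± 0.31, adjusted p = 0.107, and 0.56 ± 0.30, adjusted p = 0.154). Of the feedback regulators, Cish (1.97 ± 0.45, adjusted p = 0.00662) and Socs2 (1.47 ± 0.34, adjusted p = 0.00735), relatives of Socs3 induced mainly by STAT5, were higher in both-tumor therapy than in intracranial-only therapy libraries. The phosphatase gene Ptpn2 was lower (-0.40 ± 0.15, adjusted p = 0.0449).

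For the interaction 7 of the 49 genes were called positive and 2 negative, beside 22% of all genes. Gfap (5.54 ± 0.99), Myc (-1.71 ± 0.39) and Junb (1.65 ± 0.40) had the smallest p among the STAT3 targets, each with adjusted p = 0.0321. Il27ra (2.89 ± 0.88, adjusted p = 0.0422), Cish (2.23 ± 0.62, adjusted p = 0.0351) and Shc1 (-0.62 ± 0.20, adjusted p = 0.0474) were called in the other lists. No gene of these lists was called between therapy and IgG in intracranial-only mice or between tumor settings under IgG. There 5 and 1 had an unadjusted p under 0.05 in edgeR, beside 2151 and 188 of all genes. DESeq2 called 2 and 0 of the listed genes, beside 1035 and 0 of all genes.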

How the data were processed

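RNA was sequenced from 12 tumors. Per the submitters' processing notes, the authors used Bowtie2 2.2.3, TopHat2 2.0.12 and HTSeq 0.6.1 with GRCm38/mm10. The annotation release and the strand setting were not given in the sources used here. Raw read counts per Ensembl gene fill the deposited count table. The deposited FPKM table equals count over gene length and library total for the 16062 genes with a read in every library, within 1e-06. Of 47069 identifiers 46488 had a symbol. Groups come from the labels' tumor and treatment entries. Replicates were numbered in accession order and are unpaired, since the labels give no pairing or batch. All 12 within-group pairs differed beyond sampling noise.

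Counts were fitted with edgeR 4.0.16 (R 4.3.3, quasi-likelihood, TMM, filterByExpr at 10 and 15 reads, 4 group means over 12 libraries), with Benjamini-Hochberg adjustment over 15925 genes and a threshold of 0.05. The fit was tested on counts simulated from mean levels of these libraries and its own estimate of spread. That run does not test the model against the real libraries. CPM uses TMM library sizes. The spread among the 3 libraries of a group, larger than counting noise in every pair, sets the precision. Alternatives were RLE factors, no filter, DESeq2 1.42.0, limma 3.58.1 (voom, log2 of FPKM plus 1 or 0.1), compared groups alone, a neuron-marker covariate, and leaving out each library. Members and lists were chosen with earlier results of these data known. Named genes are the members, up to 3 genes per list and comparison by smallest p, and the genes most like each member.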

Additional observations from a re-analysis of the deposited data

Results flagged for a closer look

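For 3 genes the effect of therapy differed between mice with both tumors and mice with the intracranial tumor only, by the interaction term of edgeR's quasi-likelihood fit. The difference between both therapy effects on the log2 scale was 4.64 for Clcf1, 1.67 for Osmr and 2.04 for Socs3, with Benjamini-Hochberg adjusted p-values of 0.0321, 0.0321 and 0.0391. All 10 neuron markers were called positive for the interaction, beside 12.1% of all genes. So were 8 of 8 microglia, 7 of 8 oligodendrocyte, 4 of 9 astrocyte and 4 of 9 endothelial markers. Of monocyte and macrophage markers 3 of 10 were called, and of tested neutrophil markers 1 of 4. The count was 0 of 10 for T cell and 0 of 9 for melanocyte markers. Their median interactions were 3.73 and 0 on the log2 scale, beside 3.6 for microglia and 2.39 for astrocyte markers. With the mean level of the neuron markers as a covariate, 0 of all genes were called, so that fit cannot set these members apart. Its differences were 3.0 for Clcf1, 1.72 for Osmr and 2.16 for Socs3 (edgeR adjusted p = 0.89 each). With limma's voom Socs3 was not called either (1.94, adjusted p = 0.0584).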

How the results depend on the processing

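For therapy against IgG in both-tumor mice, 3 members passed the threshold in the fit as reported. The count was 0 with RLE size factors, 0 without the filter, 0 with the compared groups alone, 0 with the neuron covariate, 5 with log2(FPKM + 1), and 0 to 3 when 1 library was left out. In intracranial-only mice it was 0, against 2 with DESeq2, 1 with the compared groups alone, and 0 to 2 when 1 library was left out. Under IgG it was 0 in every fit run. For both tumors against intracranial only under therapy it was 5, with 0 under the neuron covariate and 4 to 5 when 1 library was left out. For the interaction it was 3, with 2 in voom, which did not call Socs3, 0 under the neuron covariate and 0 to 4 when 1 library was left out. The cause of these changes was not tested. For therapy against IgG in both-tumor mice, 858 of all genes passed, with 0 for RLE, no filter, groups alone and the covariate, 3133 for DESeq2, 1802 for voom, 2630 for log2(FPKM + 1) and 1759 for log2(FPKM + 0.1). In intracranial-only mice 0 of all genes passed, with 1035 for DESeq2 and 839 with groups alone, and for the interaction 3505 passed, with 1683 for voom and 0 under the covariate. The other pathway genes called numbered 3 in both-tumor mice, with 9 for voom and for log2(FPKM + 1) and 8 for log2(FPKM + 0.1), and 9 for the interaction, with 17 for DESeq2. Of all genes, DESeq2 called 4789 for the interaction.

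Log2 fold changes turned sign for members that were not called in either fit. In intracranial-only mice, therapy against IgG gave Lifr 0.05 without the filter, 0.01 in DESeq2, 0.02 in voom and 0.32 with the neuron covariate, which also gave Il6ra 0.12 and Cntfr 0.07. Under IgG, Osm was 0.13 in voom and 0.09 with log2(FPKM + 0.1), and the covariate gave Lifr 0.03 and Il6ra 0.01. Under therapy, Lif was -0.01 without the filter and -0.18 with the covariate, Lifr was -0.22 with the covariate, and Cntfr was 0.04 with either FPKM scale. For the interaction the covariate gave Lifr -0.25 and Cntfr -0.28. Leaving out 1 library at a time gave these ranges. For therapy against IgG in both-tumor mice they were -0.21 to 0.59 for Lif, -0.09 to 0.04 for Il6st and -0.32 to 0.06 for Cntfr. In intracranial-only mice they were -1.43 to 0.64 for Osm, -0.25 to 0.23 for Lifr, -0.01 to 0.22 for Il6st, -0.33 to 0.04 for Cntfr and -0.53 to 0.22 for Socs3. Under IgG they were -0.67 to 1.24 for Osm, -0.24 to 0.20 for Lifr, -0.06 to 0.08 for Il6st, -0.36 to 0.39 for Il6ra, -0.22 to 0.07 for Cntfr and -0.57 to 0.19 for Socs3. Under therapy they were -0.43 to 1.18 for Lif and -0.28 to 0.11 for Cntfr, and for the interaction -0.01 to 0.45 for Lifr and -0.16 to 0.22 for Cntfr. No paired analysis was possible because the labels give no replicate numbers. Depth limits Il6 most, with 32 reads over 12 libraries.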

Other observations

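Replicate 2 of intracranial-only therapy held the highest Il6 (12 reads, 0.495 FPKM), Lif (45 reads, 0.865 FPKM) and Il11 (49 reads, 1.75 FPKM) of the 12 libraries. Il11, a family ligand named after its values were seen, had 0 to 19 reads in the other 11 libraries. Il27, the partner of Ebi3 in IL-27 and likewise named after its values were seen, had 5, 20 and 15 reads in both-tumor therapy libraries, against 5, 0 and 2 reads in both-tumor IgG libraries. It had 0, 0 and 7 reads in intracranial-only therapy libraries, against 0, 8 and 2 reads in intracranial-only IgG libraries.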
